A study of Homo sapiens with 30 samples.

Results

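Composite CTCF regions are stretches of the genome in which the authors' peak caller placed more than 1 CTCF summit inside a single enriched interval. They were selected on the CTCF peak list of cells without the auxin indole-3-acetic acid (IAA). Rows that shared 1 bp or more were joined, and a region built from 2 or more rows was a member. The list of 43879 rows gave 42925 CTCF regions. Of these, 900 (2.10%) were composite and held 1854 summits, and 42025 had 1 summit. In all 900 the joined rows had the same start and end and differed in the summit, so a member is 1 called interval with several local maxima.

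The series profiled an edited HEK293T line, an established human embryonic kidney cell line, by chromatin immunoprecipitation and sequencing (ChIP-seq). The cells treated with IAA received 0.5 mM for 72 h. The other cells were kept in medium without IAA, though a label calls this arm DMSO. In both arms CTCF was edited for auxin-induced degradation, and both had been co-transfected with ScFv-miniIAA7-mEGFP and AtAFB2-mCherry plasmids, so the controls carried the edit and the degradation system too. The labels do not say whether the edited cells were 1 clone. Antibodies to CTCF, MBD3, TET1 and TET2, plus inputs, made 10 groups of 3 samples. The deposited data are 8 peak lists, 1 per antibody and arm, each over its 3 pooled samples. No value per sample and no depth is given, so no spread between cultures can be stated. The tests below treat regions as units and describe these pooled lists only. The intervals beside shares are 95% Wilson intervals.

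CTCF is a zinc-finger protein that binds a long, directional DNA motif, insulates chromatin domains and halts the cohesin complex as it extrudes loops. Vertebrate genomes hold places where CTCF motifs lie close together, and neighbouring motifs can be occupied on the same or on different molecules. TET1 and TET2 are dioxygenases that oxidise 5-methylcytosine, a step towards DNA demethylation. MBD3 belongs to NuRD, a complex that moves nucleosomes and removes acetyl groups from histones. A ChIP-seq summit is the point of highest fragment pileup, so it approximates the contact point of the protein but does not show a motif. No genome of the hg19 build was used here, so motifs and genes under the summits were not analysed.

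Most composite regions were pairs. There were 853 with 2 summits, 43 with 3, 2 with 4, 1 with 5 and 1 with 6. Neighbouring summits formed 954 pairs, with a median distance of 290 bp (quartiles 230 and 368 bp, range 39 to 862 bp). There were 165 pairs at 200 to 250 bp and 209 at 250 to 300 bp. A further 255 pairs lay 300 to 400 bp apart, and 48 lay under 150 bp apart. Libraries were size-selected at 200 to 500 bp per the labels' protocols, a range that spans most of these distances. The part of fragment length in the spacing was not tested.

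**Figure D1:**
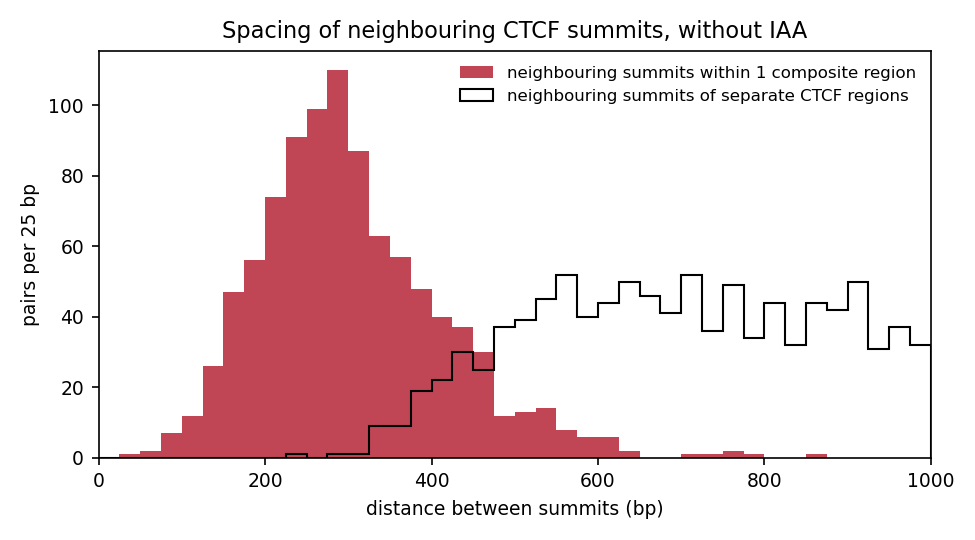
Distance in bp between neighbouring CTCF summits (x axis) against the number of pairs (y axis), for pairs within 1 composite region and pairs in separate neighbouring regions, without IAA. Pairs within a region dominate below 400 bp and pairs in separate regions dominate above 500 bp.

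Distance separated summit pairs within a composite region from neighbouring pairs in separate CTCF regions, composite or single-summit, only in part. Below 300 bp, 525 neighbouring pairs lay within a composite region and 2 lay in separate regions. From 300 to 400 bp the counts were 255 within and 38 separate. From 400 to 500 bp they were nearly equal, at 119 within and 114 separate. From 500 to 600 bp 41 pairs were within a region and 176 were separate, and from 600 to 900 bp the counts were 14 and 514. The closest separate regions were 155 bp apart edge to edge and 231 bp apart summit to summit. Pairs of CTCF summits 400 to 600 bp apart were thus called both as 1 region and as 2. These values come from the list that chose the members and are a description.

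Composite regions were wider than single-summit regions, with a similar median fold at their strongest summit and a higher median −log10 q. The median width was 584 bp (quartiles 491 and 701 bp) in composite regions and 274 bp (quartiles 211 and 340 bp) in single-summit regions. The stretch of a composite region outside its outermost summits had a median of 275 bp, close to the width of a whole single-summit region. The fold enrichment at the strongest summit, the authors' own ratio for the peak, had a median of 14.6 (quartiles 6.92 and 26.3) in composite regions. In single-summit regions the median fold was 13.6 (quartiles 7.43 and 24.2). The composite value is the highest of 2 or more summits and the single-summit value is that of 1, so the measures are not alike. The median −log10 q was 48.5 in composite regions and 33.2 in single-summit regions. It too is the highest value of 2 or more summits in a composite region. Regions with very low fold were a larger share of the composite class: 16 (1.78%) lay under 3-fold, against 262 (0.623%) of the single-summit regions.

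Within a composite region the summits were usually unequal. The weakest summit had a median fold of 5.10 (quartiles 3.83 and 8.78), and it was under 5-fold in 431 regions (47.9%). The ratio of the strongest to the weakest summit had a median of 1.86 (quartiles 1.31 and 3.48). In 327 regions (36.3%) the ratio was under 1.5, and in 133 (14.8%) it was 5 or more. The strongest summit lay at the lower coordinate in 453 regions (50.3%), about equally often on either side.

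**Figure D2:**
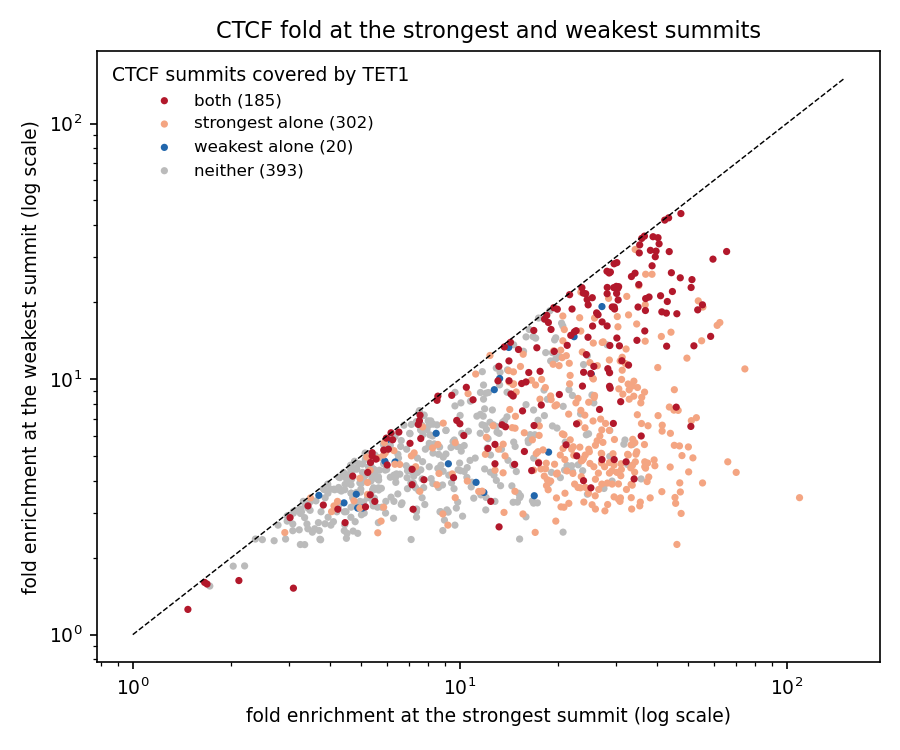
CTCF fold enrichment at the strongest summit (x axis) against the weakest summit (y axis) of each of the 900 composite regions, both on log scales, without IAA. Colours give the end summits covered by a TET1 region (both in 185, strongest alone in 302, weakest alone in 20, neither in 393), and points on the dashed line have equal summits.

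Closely spaced summits were more alike and weaker. In regions of 2 summits, 131 had them under 200 bp apart, with a median ratio of 1.24 and a median strongest fold of 5.35. The 332 regions at 200 to 300 bp had a median ratio of 1.78 and a median fold of 12.3. The 229 regions at 300 to 400 bp had a median ratio of 2.46 and a median fold of 19.0. The 161 regions at 400 bp or more had a median ratio of 2.02 and a median fold of 23.5. The 47 regions of 3 or more summits had a median width of 867 bp and a median fold of 15.2.

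The most unequal pairs included the strongest members. The region chr6:73121727-73122273 (hg19) had 109.5-fold enrichment at 1 summit, the third highest of all CTCF regions, and 3.44-fold at the other, 290 bp away. The region chr1:222628417-222629078 had 74.5-fold and 11.0-fold summits 334 bp apart. The region chr5:113014679-113015243 had 70.1-fold and 4.31-fold summits 327 bp apart. In all 3 regions a TET1 region and an MBD3 region covered the strongest summit and neither covered the weakest.

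The most widely spaced pairs were strong at both ends. At chr19:39902496-39903711 the summits lay 862 bp apart with 35.4-fold and 31.2-fold enrichment. Each of those summits had a TET1 region of its own, and MBD3 covered the stronger alone. At chrX:109389019-109390214 the summits of 30.4-fold and 22.6-fold lay 758 bp apart, again with 2 TET1 regions and with MBD3 at the stronger. At chr16:70285696-70286874 the summits lay 755 bp apart with 53.7-fold and 20.2-fold enrichment, and TET1 and MBD3 covered the stronger alone.

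The closest pairs had low fold. The summits of chr10:88964740-88965046 lay 39 bp apart at 3.26-fold and 3.10-fold. Those of chr7:99647372-99647630 lay 55 bp apart at 2.97-fold and 2.78-fold, and those of chr17:20756102-20756291 lay 60 bp apart with both at 2.37-fold. None of these 3 shared a base with a TET1, MBD3 or TET2 region.

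Among regions of many summits, the shapes differed. The region chr1:544702-546132 had 5 summits of nearly equal fold, between 4.60 and 5.34, spaced 243 to 370 bp apart, and no TET1, MBD3 or TET2 region touched it. The region chr1:178511652-178512451 had 4 summits, with folds of 26.6, 5.76, 4.29 and 9.35 in coordinate order, and TET1 covered the first alone. The region chr5:10065-11760, near the start of that chromosome's sequence, had 4 summits between 4.86-fold and 5.55-fold, and TET1, MBD3 and TET2 covered every one.

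Composite regions lay on every chromosome from 1 to 22 and on X. Chromosome 19, the most gene-dense human chromosome, had the highest composite share, with 71 of 1738 CTCF regions (4.09%, interval 3.25 to 5.12%). Chromosome 14 followed with 2.76% and chromosome 11 with 2.72%. Chromosome 18 had the lowest share, with 8 of 821 (0.974%, interval 0.495 to 1.91%). The window of 1 Mb with the highest number of composite regions was chr11:64000001-65000000, where 7 of 50 CTCF regions were composite. By share other windows were higher, such as chr11:47000001-48000000 with 4 of 22. These shares come from the list that chose the members and were not tested.

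TET1, MBD3 and TET2 were each called more often at composite than at single-summit CTCF regions. Without IAA, TET1 shared at least 1 bp with 522 composite regions (58.0%, interval 54.7 to 61.2%), against 14224 single-summit regions (33.8%, interval 33.4 to 34.3%). Of all CTCF regions, 34.4% touched a TET1 region. MBD3 touched 155 composite regions (17.2%, interval 14.9 to 19.8%), against 3567 single-summit regions (8.49%), with 8.67% of all CTCF regions. TET2 touched 69 composite regions (7.67%, interval 6.10 to 9.59%), against 405 single-summit regions (0.964%), with 1.10% of all CTCF regions.

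The odds ratio of composite against single-summit regions was 2.70 for TET1 (95% interval 2.36 to 3.09, Fisher's exact test, adjusted p = 7.98e-48). For MBD3 it was 2.24 (1.88 to 2.68, exact test, adjusted p = 1.28e-16). For TET2 it was 8.53 (6.55 to 11.1, exact test, adjusted p = 8.92e-37). The tests were two-sided, with Benjamini-Hochberg adjustment over the 3 antibodies. Width differed between the classes through the rule, so regions were also compared within strata of width. There the odds ratio was 0.392 for TET1 and 0.506 for MBD3, below 1, but 4.36 for TET2. In strata of fold and width together it was 1.38 for TET1 (95% interval 1.15 to 1.65), 1.19 for MBD3 (0.970 to 1.45, which includes 1) and 2.55 for TET2 (1.86 to 3.50). Few single-summit regions could be matched on width, since 224 reached the composite median, so widths can still differ within a stratum. Requiring 50% of both regions to overlap turned TET1 to 0.677 and left MBD3 at 1.05 (Fisher's exact test, adjusted p = 0.792).

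Regions with several antibodies were also a larger share of the composite class. None of the 3 touched 349 composite regions (38.8%), against 27299 single-summit regions (65.0%). TET1 and MBD3 together touched 149 composite regions (16.6%), against 3226 single-summit regions (7.68%). All 3 touched 27 composite regions (3.00%), against 108 single-summit regions (0.257%). These combined shares were not tested. Each antibody alone was also called more often at composite regions, which were wider, and whether the antibodies combined beyond this was not tested.

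The difference in TET1 share varied with CTCF fold. All CTCF regions were cut into 10 strata of fold at the strongest summit. In the second weakest stratum, 5.01-fold to 6.56-fold, TET1 touched 36 of 94 composite regions (38.3%), against 4.47% of single-summit regions. In the sixth stratum the shares were 57.9% of composite and 20.2% of single-summit regions. In the strongest stratum, above 35.3-fold, they were 99.0% of composite and 96.7% of single-summit regions. Shares so near the top of the scale leave little room to differ. Whether the odds ratio differed between strata was not tested. Over the 10 strata the Mantel-Haenszel odds ratio was 4.53 for TET1, 2.33 for MBD3 and 7.95 for TET2.

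MBD3 and TET2 followed fold differently. MBD3 touched 58.4% of composite regions and 45.1% of single-summit regions in the strongest stratum, and at most 10.1% of composite regions in any of the 7 weakest strata. TET2 touched 16.4% of composite and 3.87% of single-summit regions in the weakest stratum, and 4.95% of composite and 0.905% of single-summit regions in the strongest. Among composite regions, the median CTCF fold was 23.6 with TET1 and 7.67 without it. It was 30.6 with MBD3 and 12.7 without, but 7.62 with TET2 and 15.1 without.

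**Figure D3:**
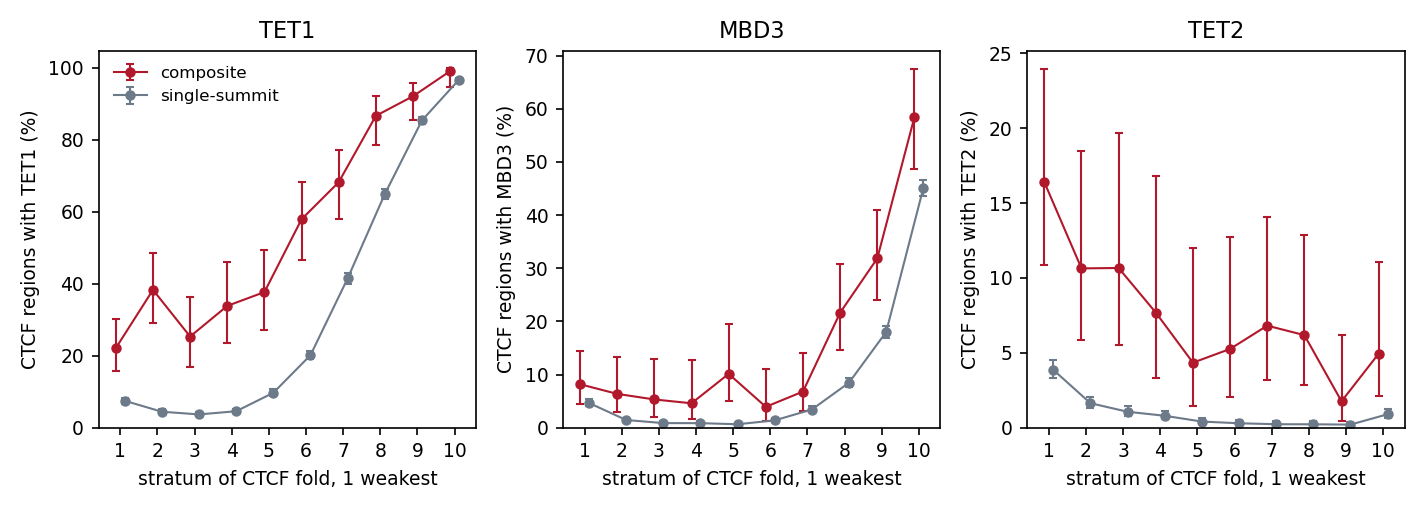
Share of CTCF regions touched by a TET1, MBD3 or TET2 region without IAA (y axis, percent) in 10 strata of CTCF fold (x axis, 1 weakest), for composite and single-summit regions. Bars are 95% Wilson intervals. Composite regions lie above single-summit regions in each TET1 stratum, and in the strongest both are near the top of the scale, at 99.0% and 96.7%.

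Within composite regions, TET1 was found more often at the strongest CTCF summit than at the weakest. A TET1 region covered the strongest summit in 487 members (54.1%) and the weakest in 205 (22.8%), against 33.8% of all CTCF summits. For single summits weighted to the same fold strata the shares were 36.8% and 11.2%, a difference in the same direction. Of the 522 members that TET1 touched, 302 had it at the strongest summit alone, 185 at both, 20 at the weakest alone and 15 at neither end. The ratio of strongest alone to weakest alone was 15.1 (95% interval 9.60 to 25.1, exact McNemar test, two-sided, adjusted p = 2.43e-65). In the 327 regions with summits within 1.5-fold of each other, a group chosen after the data were seen, the counts were 39 and 11 and the ratio was 3.55 (exact McNemar test, adjusted p = 0.000271).

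MBD3 was also found more often at the strongest summit, and its ratio was not tested against that of TET1. It covered the strongest in 132 members (14.7%) and the weakest in 56 (6.22%), against 8.35% of all CTCF summits. For single summits weighted to the same fold strata the MBD3 shares were 9.40% and 3.18%. Of the 155 members that MBD3 touched, 91 had it at the strongest summit alone, 41 at both, 15 at the weakest alone and 8 at neither end. The ratio was 6.07 (3.49 to 11.3, exact McNemar test, adjusted p = 2.86e-14). In regions with summits within 1.5-fold of each other the counts were 11 and 10, and no preference was detected there (ratio 1.10, exact McNemar test, adjusted p = 1).

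No such preference was detected for TET2. It covered the strongest summit in 32 members (3.56%) and the weakest in 41 (4.56%), against 0.820% of all CTCF summits. For single summits weighted to the same fold strata the TET2 shares were 0.752% and 1.72%, also higher at the lower fold. Of the 69 members that TET2 touched, 11 had it at the strongest summit alone, 20 at the weakest alone, 21 at both and 17 at neither end. The ratio was 0.550 (0.238 to 1.20, exact McNemar test, p = 0.150). With a TET2 summit within 50 bp as the criterion, 8 members had it at the strongest alone and 20 at the weakest alone, a ratio of 0.400 (exact McNemar test, adjusted p = 0.0357). By the nearest TET2 summit, 22 members were nearer the strongest and 41 nearer the weakest, a ratio of 0.537 (exact test, adjusted p = 0.0226). Whether TET2 differed in this from TET1 and MBD3 was not tested.

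**Figure D4:**
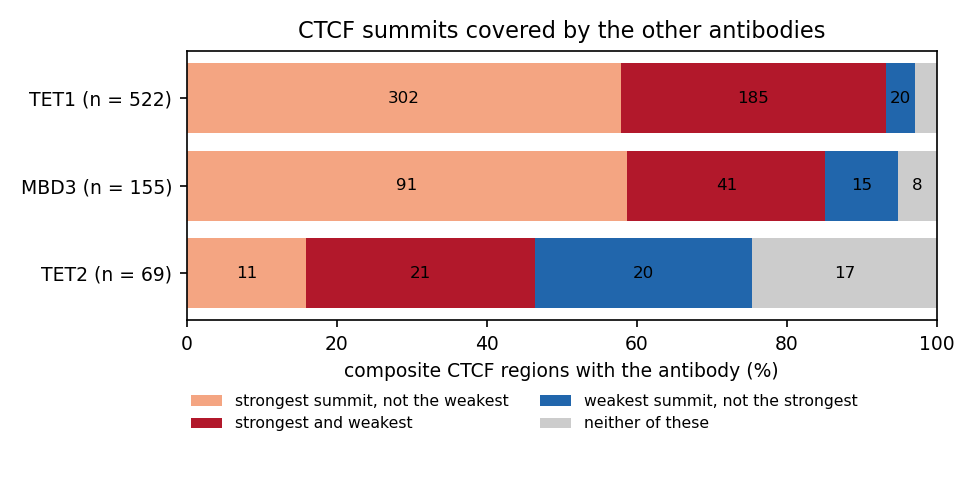
Share of the composite regions touched by TET1, MBD3 or TET2 without IAA (x axis, percent; numbers in bars are regions) in which the antibody region covers the strongest CTCF summit alone, both end summits, the weakest alone or neither. TET1 and MBD3 are mostly at the strongest alone (302 of 522 and 91 of 155), and TET2 at both or the weakest alone (21 and 20 of 69).

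Where TET1 covered both end summits, 1 TET1 region spanned them in 143 members and 2 separate TET1 regions lay over them in 42. MBD3 covered both with 1 region in 38 members and with 2 in 3. All 21 members with TET2 at both ends had 1 TET2 region across them. Members with TET1 at both ends had a median weakest CTCF fold of 11.8 and a median ratio of 1.51. Members with TET1 at the strongest alone had a median weakest fold of 5.30 and a median ratio of 3.80. Members with TET1 over both end summits thus had the stronger second CTCF summit by median, though in most of them 1 TET1 region reached over both. MBD3 covered an end summit in 42.2% of the members with TET1 at both ends and in 20.5% of those with TET1 at the strongest alone. It did so in none of the 20 members with TET1 at the weakest alone and in 1.78% of the 393 with TET1 at neither.

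MBD3 and TET2 covered both summits mainly where the summits were close. MBD3 covered both summits in 15 of 131 regions with summits under 200 bp apart, in 18 of 332 at 200 to 300 bp, in 4 of 229 at 300 to 400 bp and in 3 of 161 at 400 bp or more. TET2 covered both in 13, 5, 1 and 1 of these regions. Close summits can lie under 1 antibody region, and the part of distance in these counts was not tested. TET1 covered both in 25.2%, 19.9%, 17.5% and 26.1% of the same 4 classes.

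Most TET1 and MBD3 summits lay on CTCF summits, and few lay between them. In composite regions of 2 CTCF summits there were 625 TET1 summits, of which 67.7% lay at the strongest CTCF summit, 23.4% at the weakest and 5.60% between. Here "at" means within 0.25 of the distance between the CTCF summits. The median distance from a TET1 summit to the nearer CTCF summit was 10 bp, against 7 bp at single-summit regions. It was within 50 bp for 88.3% in composite and 97.3% in single-summit regions. The 171 MBD3 summits were placed alike, with 67.8% at the strongest, 20.5% at the weakest and 6.43% between, and a median distance of 13 bp. The 67 TET2 summits were spread more widely, with 26.9% at the strongest, 40.3% at the weakest and 19.4% between, and a median of 38 bp, with 56.7% within 50 bp. At single-summit regions the TET2 spread was also wide, with a median of 54 bp from the CTCF summit and 46.6% within 50 bp.

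**Figure D5:**
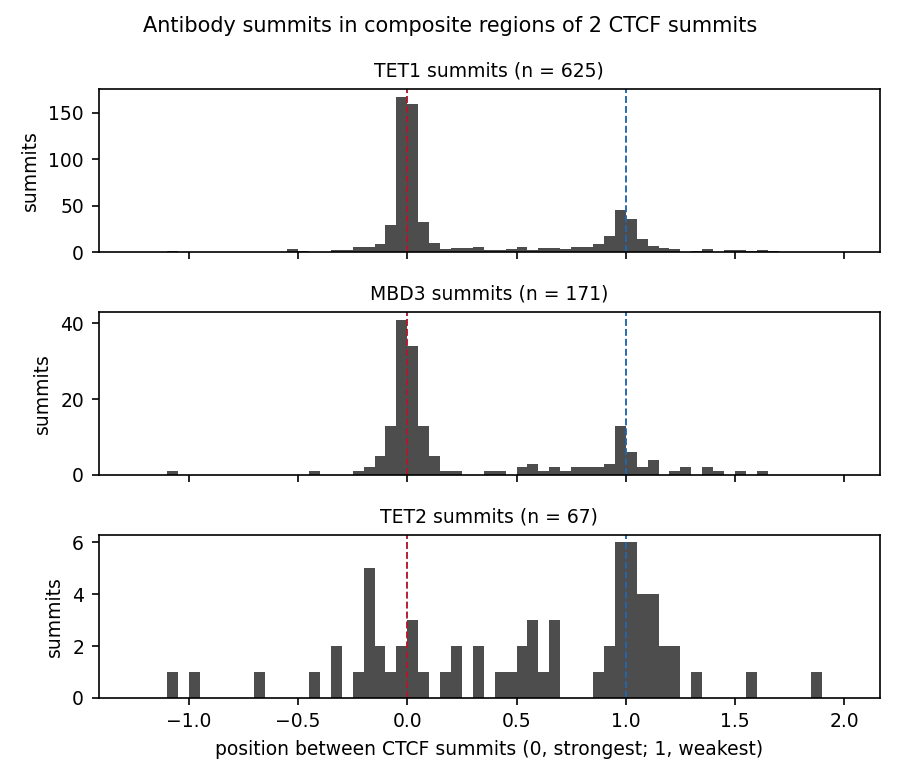
Position of TET1, MBD3 and TET2 summits in composite regions of 2 CTCF summits, scaled so that the strongest CTCF summit is at 0 and the weakest at 1 (x axis), against the number of antibody summits (y axis), without IAA. TET1 and MBD3 have a high peak at 0 and a lower one at 1, and TET2 is spread with 40.3% at the weakest.

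Antibody regions at composite CTCF regions were more often composite as well. Of 571 TET1 regions at composite CTCF regions, 100 (17.5%) were made of 2 or more rows, against 62 of 14227 (0.436%) at single-summit regions. The odds ratio was 48.5 (34.9 to 67.5, Fisher's exact test, adjusted p = 1.03e-100). The counts were 16 of 160 (10.0%) against 33 of 3567 (0.925%) for MBD3, and 10 of 69 (14.5%) against 12 of 406 (2.96%) for TET2. The odds ratios were 11.9 for MBD3 (exact test, adjusted p = 9.29e-11) and 5.56 for TET2 (adjusted p = 0.000343). The tests were two-sided and adjusted over the 3 antibodies, and this comparison was added after the data were seen. The share with 2 or more rows over each whole list was 1.17% for TET1, 1.71% for MBD3 and 3.39% for TET2. Away from CTCF regions it was 1.93%, 2.22% and 2.70%. For TET1 and MBD3 the single-summit share lay below both of these. Antibody regions at composite CTCF regions were also wider than those at single-summit regions. Their median widths were 238 and 198 bp for TET1, 200.5 and 180 bp for MBD3, and 225 and 200 bp for TET2. The part of width was not tested. The antibody regions had slightly lower median folds. The median TET1 fold was 6.86 at composite and 7.63 at single-summit CTCF regions, that of MBD3 5.31 and 5.96, and that of TET2 4.39 and 4.48.

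Summits in composite regions carried the antibodies more often than single summits of the same CTCF fold. TET1 covered the strongest summit in 54.1% of members, against 36.8% of single summits weighted to the same fold strata. It covered the weakest in 22.8%, against 11.2% of single summits of that lower fold. The Mantel-Haenszel odds ratios were 3.82 and 3.16 for TET1 at the strongest and weakest, 1.90 and 2.24 for MBD3, and 5.02 and 2.79 for TET2. The highest of the 6 adjusted p values of the Mantel-Haenszel test was 9.33e-08. One antibody region can reach over a neighbouring summit, so an antibody summit within 50 bp was also required. The ratios were then 2.97 and 2.19 for TET1, 1.76 and 2.05 for MBD3, and 3.93 and 3.17 for TET2. By that criterion 32.8% of all CTCF summits had TET1, 7.73% MBD3 and 0.474% TET2. In the 421 members with strongest and weakest summits 300 bp or more apart, the TET1 ratios were 3.44 and 2.21. MBD3 was then 1.65 at the strongest and 1.41 at the weakest (95% interval 0.754 to 2.63). TET2 was 2.50 at the strongest (0.789 to 7.90) and 2.25 at the weakest (1.08 to 4.67), and neither passed the threshold after adjustment. These comparisons were chosen after the data were seen.

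Regions with all 3 antibodies showed both kinds of arrangement. At chr2:171785278-171785822 the 2 CTCF summits were 197 bp apart and nearly equal, at 47.5-fold and 44.4-fold, and TET1, MBD3 and TET2 covered both. At chr1:85069971-85070574 the summits of 47.0-fold and 5.48-fold lay 329 bp apart, and the 3 antibodies covered the strongest alone. At chr7:102212835-102213478 the summits of 46.2-fold and 2.25-fold lay 328 bp apart, again with all 3 at the strongest alone. That region had the highest −log10 q of the composite class, 1102.

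With IAA nearly all composite regions were absent from the 4 peak lists. Of the 900 members, 885 shared no base with a region of any of the 4 IAA lists. The other 15 (1.67%, interval 1.01 to 2.73%) compared with 111 of 42025 single-summit regions (0.264%). These counts take a call of any antibody, and at some of the 15 that antibody had no call without IAA. The IAA CTCF list held 63 regions in all and touched 6 composite regions (0.667%, interval 0.306 to 1.45%), against 48 single-summit regions (0.114%) and 0.126% of all CTCF regions. The odds ratio was 5.87 (2.51 to 13.7, Fisher's exact test, adjusted p = 0.00183). The IAA CTCF region covered the strongest summit in all 6 and the weakest in 2. Peak calls depend on depth, which is unknown here, so absence from a list is not absence of the protein.

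The other IAA lists also touched few members. MBD3 touched 2 composite regions, against 4 single-summit regions and 0.0140% of all CTCF regions, with an odds ratio of 23.4 (4.28 to 128, exact test, adjusted p = 0.00623). TET1 touched 5, against 40 and 0.105% of all, with an odds ratio of 5.86 (2.31 to 14.9, exact test, adjusted p = 0.00326). TET2 touched 6, against 29 and 0.0815% of all, with an odds ratio of 9.72 (4.03 to 23.5, exact test, adjusted p = 0.000323). The tests were two-sided and adjusted over the 4 lists. None of the 4 calls held in strata of fold and width, where the odds ratios were 2.23 for CTCF, 2.88 for MBD3, 2.11 for TET1 and 5.39 for TET2. The adjusted p values there ran from 0.123 for TET2 to 0.695 for MBD3. None held with −log10 q of at least 5 in every list either (exact tests, adjusted p = 0.101 for each).

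Among members with a CTCF region called with IAA, some had strong CTCF summits without IAA. At chr6:20126925-20127897 a CTCF region of 5.19-fold lay over the strongest summit with IAA. Without IAA the summits were 62.5-fold and 16.6-fold, 606 bp apart, and each had an MBD3 region of its own. At chr11:65655724-65656630 the IAA CTCF region had 4.87-fold enrichment, and the summits without IAA had 26.3-fold and 5.74-fold. At chr19:36207670-36208628 the IAA CTCF region had 5.57-fold, and the summits without IAA had 25.5-fold and 10.1-fold. The −log10 q of these 3 IAA CTCF regions was low, at 2.25, 2.42 and 2.93 in that order. TET1 covered the strongest summit of all 3 without IAA, and with IAA no TET1, MBD3 or TET2 region was called there.

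Others had low fold in every list. At chr9:67320493-67320892 CTCF, MBD3 and TET1 were called with IAA at 2.17-fold, 1.99-fold and 2.56-fold, and the CTCF summits without IAA had 3.10-fold and 1.52-fold. At chr10:42400211-42400692 CTCF, MBD3 and TET1 were called with IAA at 1.95-fold, 1.94-fold and 1.90-fold, and the CTCF summits without IAA had 1.47-fold and 1.26-fold. These were the 2 members found in more than 1 IAA list, the only members with MBD3 in the IAA list, and both carried all 3 other antibodies without IAA. They were also 2 of the 6 members with CTCF and 2 of the 5 with TET1 in the IAA lists. Their calls were low in fold but not in −log10 q. For CTCF without IAA its highest value was 176 on chr9 and 15.4 on chr10. In the IAA lists that called them it ran from 15.7 to 44.4. Of the 15 members called with IAA, 7 had a strongest CTCF summit under 5-fold without IAA, against 121 of all 900 members. This difference was not tested.

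TET1 with IAA was also called at 3 further members. At chr15:89901810-89902430 its fold was 3.73 with IAA, and 10.3 without IAA. At chr2:87303589-87304132 it was 7.62 with IAA, and 4.36 without IAA. At chr6:109416218-109416765 it was 4.75 with IAA, and no TET1 region was called there without IAA. The −log10 q of the TET1 region with IAA was 1.33 on chr15, 6.97 on chr2 and 1.99 on chr6. Without IAA it was 62.4 on chr15 and 8.19 on chr2. Folds of 2 pooled lists have no replicate error and were not tested against each other.

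Of the 6 members with TET2 in the IAA list, 5 lay on the chromosomes from which regions were named. The TET2 folds with IAA were 4.20 at chr19:10527082-10527926 and 4.26 at chr19:56826093-56826629. They were 3.39 at chrX:284188-284746, 5.50 at chr14:74416686-74417184 and 7.11 at chr5:10065-11760. The −log10 q of these 5 TET2 regions was 1.84, 1.76, 1.84, 3.62 and 11.8 in that order. The CTCF fold of these 5 members without IAA ran from 3.54 to 22.1. TET2 was called without IAA at 2 of them, chr19:56826093-56826629 and chr5:10065-11760. At the first of those 2 the TET2 region without IAA lay over the weakest CTCF summit and the one with IAA reached neither summit position.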

How the data were processed

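Peak lists were analysed for 8 pooled groups (4 antibodies, with and without IAA, 3 samples each). The submitters' processing notes list MACS2 2.1.2, Bowtie2 2.3.4, bedtools 2.25.0, SAMtools 1.9 and FastQC 0.11.7 without roles, and name hg19 as the build. The deposited lists give a fold enrichment (a ratio) and −log10 of the q-value for each row, both computed by the authors, with the summit as an offset. The control and depth are not given in the sources used here. The highest q was 0.0497.

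Rows sharing 1 bp or more were joined within each list, keeping the highest fold. Starts are printed from 1. Strongest and weakest summits were ranked by fold, and 5 members had equal folds. A summit counted as covered where an antibody region included its position. Python 3.11.15, SciPy 1.17.1 and statsmodels 0.14.6 were used. Fisher's exact and exact McNemar tests were two-sided with Benjamini-Hochberg adjustment and a threshold of 0.05. Fisher's exact test and the Mantel-Haenszel odds ratio were tried on simulated data, and the McNemar ratio on fixed counts only. Alternatives were thresholds on q and fold, overlap rules, strata of fold and width, and definitions of composite.

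Regions named were, on chromosomes 1 to 7, 9 to 22 and X, the 3 with the most summits, highest fold, greatest and smallest summit distance, and highest fold with all 3 other antibodies, plus members in each IAA list (all where 5 or fewer, else the 3 of highest CTCF fold). The members and rules were chosen with earlier results of these data known. A planned motif search was not done, as no hg19 genome was used here.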

Additional observations from a re-analysis of the deposited data

How the results depend on the processing

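No paired analysis was possible because each list pools its 3 samples, which also prevents leaving out a replicate. TET1, MBD3 and TET2 odds ratios at composite against single-summit regions stayed above 1 and under an adjusted p of 0.05 except as follows. In strata of width TET1 was 0.392 and MBD3 0.506, with 50% of both regions TET1 was 0.677 and MBD3 1.05, and in strata of fold and width MBD3 was 1.19. TET2 ranged from 2.55 to 10.7. TET1 at the strongest against the weakest summit ranged from 3.55 to 120. MBD3 was 1.10, not past the threshold, where summits were within 1.5-fold. TET2 was 0.400 with summits within 50 bp and 0.537 by the nearest summit, both past the threshold. Against single summits of the same fold, within 50 bp and 300 bp or more apart, MBD3 at the weakest was 1.41, TET2 at the strongest 2.50 and TET2 at the weakest 2.25, none past the threshold.

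The calls with IAA rest on 2 to 6 members each and were lost in many settings, with fewer regions tested in some. With −log10 q of at least 5 the odds ratios were 5.43 for CTCF, 16.3 for MBD3, 10.9 for TET1 and 13.0 for TET2. With at least 10 MBD3 and TET1 were both 20.7. Apart from 2 composite regions for CTCF, each of these rests on 1. With every summit at fold 5 or more, required of composite regions alone, they were 5.63 for CTCF, 2.24 for TET1 and 6.20 for TET2. Without regions of all 4 antibodies CTCF was 3.36 and TET1 4.25. In these 2 settings MBD3 touched 0 composite regions, and its values of 9.94 (interval 0.535 to 185) and 16.0 (0.651 to 393) arise from the 0.5 added to an empty cell and show no excess. With outermost summits 200 bp apart or more MBD3 was 13.7. With 50% of both regions TET1 was 4.07 and TET2 3.89. In strata of width CTCF was 1.30, MBD3 9.32 and TET1 2.43. In strata of fold and width CTCF was 2.23, MBD3 2.88, TET1 2.11 and TET2 5.39.

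Medians of the CTCF list moved with its threshold. With −log10 q of at least 5 the summit distance was 301 bp, the width 625.5 bp in composite and 281 bp in single-summit regions, and the fold 18.0 and 14.8. With at least 10 they were 318 bp, 660.0 bp and 296 bp, and 21.7 and 17.1. With outermost summits 200 bp apart or more the composite medians were 303 bp, 614 bp and 17.3-fold, and with every summit at fold 5 or more 306.5 bp, 634 bp and 20.7-fold. The cause of these changes was not tested. TET2 at the strongest against the weakest summit had no value with −log10 q of at least 10. Depth is unknown, so a region missing from a list may be below detection.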
